A study of Homo sapiens with 14 samples.

Results

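The genes described here encode the anaphase-promoting complex or cyclosome (APC/C) and the proteins that switch it on and off. They are 10 of the 26732 genes listed in the count tables of both A549 and H1792 cells, and were found by matching their symbols. The regulated partners are the activators *CDC20* and *FZR1*, the inhibitor *FBXO5* and the ubiquitin-conjugating enzymes *UBE2C* and *UBE2S*. The core subunits are *ANAPC1*, *ANAPC2*, *CDC16*, *CDC23* and *CDC27*. All 10 passed the filter on low counts and were tested in every comparison.

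RNA sequencing was performed on 2 established human lung adenocarcinoma cell lines treated with AMG900, a small molecule that inhibits aurora kinases, at 0.1 µM for 48 h or with its solvent DMSO alone. The study used the comparison to ask which transcripts change when aurora kinases are inhibited in invasive lung cancer cells. There were 4 DMSO and 4 AMG900 libraries of A549 and 3 DMSO and 3 AMG900 libraries of H1792, although the treatment protocol gives 3 dishes per treatment. A549 cells were grown in DMEM and H1792 cells in RPMI, both with fetal bovine serum, penicillin and streptomycin. Each line stands for 1 tumor, no untreated cells are among the samples, and both lines received a single dose and a single time point. Nothing in the labels says more of the replicates than that they were separate dishes, so p-values measure the spread between these dishes.

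The APC/C is a ubiquitin ligase that marks cell cycle proteins for destruction by the proteasome. Its activators choose its targets. CDC20 directs it in mitosis, where it removes securin and cyclin B, and FZR1, also called CDH1, directs it from late mitosis through G1. FBXO5, also called EMI1, holds it inactive through S and G2 phase. UBE2C places the initial ubiquitins on a substrate and UBE2S extends them into chains. The core subunits form the scaffold (ANAPC1), the cullin that carries the catalytic site (ANAPC2) and the arms that bind activators and substrates (CDC16, CDC23 and CDC27). In proliferating cells the transcripts of several regulated partners rise and fall with the cell cycle, so a bulk sample reads both the level per cell and the phases its cells are in.

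Promoters are shown for *CDC20* and *FBXO5*, which fell most in A549, and for *ANAPC2*, which like *CDC16* passed the test in neither line. With the GC correction described below, *ANAPC2* was called lower in H1792 (log2 fold change -0.27, edgeR adjusted p = 0.00126). Promoter windows from RefSeq on GRCh38.p14, 250 bases before to 50 bases after a transcript start, were matched for 9 of the 10 members, all but *UBE2C*. The 250 bases before the start follow, 5′ to 3′ on the strand of the gene, with the letters of the motifs named below in capitals. *CDC20* lies on the plus strand (chr1:43358731-43358980), and *FBXO5* (the window with motifs out of 2, chr6:152983042-152983291) and *ANAPC2* (chr9:137188561-137188810) lie on the minus strand.
CDC20: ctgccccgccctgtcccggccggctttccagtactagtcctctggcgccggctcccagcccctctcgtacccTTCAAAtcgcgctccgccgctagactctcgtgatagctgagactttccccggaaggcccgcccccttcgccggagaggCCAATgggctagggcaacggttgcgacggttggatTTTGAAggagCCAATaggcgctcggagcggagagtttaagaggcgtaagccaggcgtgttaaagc
FBXO5: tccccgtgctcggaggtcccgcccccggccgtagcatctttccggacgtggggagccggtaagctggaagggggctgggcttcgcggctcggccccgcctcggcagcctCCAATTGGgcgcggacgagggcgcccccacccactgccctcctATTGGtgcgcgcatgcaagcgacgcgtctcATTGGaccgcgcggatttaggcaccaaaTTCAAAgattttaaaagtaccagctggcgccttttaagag
ANAPC2: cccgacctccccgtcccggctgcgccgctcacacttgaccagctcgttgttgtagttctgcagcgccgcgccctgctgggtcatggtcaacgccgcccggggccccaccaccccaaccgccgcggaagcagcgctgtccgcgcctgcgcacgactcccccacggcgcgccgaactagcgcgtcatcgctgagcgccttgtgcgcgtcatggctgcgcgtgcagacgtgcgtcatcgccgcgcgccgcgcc

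The letters searched on both strands were the cell cycle genes homology region or CHR (TTTGAA or TTCGAA), the CCAAT box (CCAAT) and an E2F motif (TTTGGCGC or TTTCGCGC). In the *CDC20* window a CHR began 65 bases before the start, between CCAAT boxes at 100 and 55 bases, and a further CHR on the other strand lay at 178 bases. The *FBXO5* window held a CHR at 40 bases and CCAAT boxes at 141, 138, 98 and 68 bases before the start, the most distant 2 of which share 2 bases. The *ANAPC2* window held none of these letters, while that of *CDC16* held a CCAAT box at 183 bases before the start. A CHR was found in 4 of the 9 members with a window (*CDC20*, *FZR1*, *FBXO5* and *ANAPC1*) and in 16.4% of the 35116 promoter windows in the table. A CCAAT box was found in 6 of 9 members and in 34.6% of all windows, and the E2F letters in 0 of 9 and 1.15%. Members were counted if any of their windows held the letters, and *FZR1* and *FBXO5* have a further window each. The shares are over single windows, so counts and shares are not like for like. By group, a CHR was in 3 of the 4 regulated partners with a window and 1 of the 5 core subunits, and a CCAAT box in 3 of each group. A match of letters is a description and not a site shown to be bound.

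Total counts per library ranged from 4254644 to 18962883 in A549 and from 42810734 to 79984064 in H1792, and A549 DMSO replicate 1 was the smallest. It also held the highest *CDC20*, *UBE2S*, *CDC16* and *FBXO5* of its group, so the A549 log2 fold changes of these genes, and the ratios to *FZR1*, are given with and without it. The keratins *KRT8* and *KRT18* led the epithelial markers, which summed to between 4225 and 5329 CPM (counts scaled to library size by TMM) with DMSO and between 6082 and 7059.7 CPM with AMG900 in A549, where the 4 tested all rose, and to between 674 and 851 CPM in H1792, where 1 of 5 rose. Of all genes, 17.2% rose in A549 and 16.2% in H1792. The sums hide single markers: *EPCAM* averaged 0.287 CPM in A549 DMSO, where it was not tested, and 3.48 CPM in H1792 DMSO. The E-cadherin gene *CDH1* (not *FZR1*) averaged 21.9 CPM in A549 DMSO and 0.697 CPM in H1792 DMSO. Between the DMSO groups 4 of the 5 were lower in H1792 and 1, *EPCAM*, was higher, against 31.9% and 34.2% of all genes. The lung epithelial markers (*NKX2-1*, *NAPSA*, *SFTPB* and *SFTPC*) summed to at most 2.06 CPM in both lines, so the lung origin was not visible in them. Leukocyte markers summed to at most 0.78 CPM, with *CD3E* at 0 in both A549 groups and in H1792 AMG900. Endothelial markers summed to at most 16.5 CPM, of which *PECAM1* (log2 fold change 0.76) and *CDH5* (2.29, at most 0.4 CPM on average) rose in H1792. The remaining endothelial marker, *VWF*, ran from 0.282 to 10.8 CPM in the H1792 DMSO libraries. Its log2 fold change in H1792 was -2.72 (SE 1.11) and did not pass the threshold (edgeR adjusted p = 0.0618). Fibroblast markers, chiefly the collagen *COL3A1*, summed to between 175 and 201 CPM in H1792 DMSO and between 90.7 and 97.1 CPM in H1792 AMG900, against at most 0.709 CPM in A549. The part of these marker differences in the results was not tested.

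In A549 cells AMG900 lowered 4 of the 5 regulated partners, and the exception was *FZR1*. *CDC20*, *FBXO5* and *UBE2C* fell more than 7-fold and *UBE2S* 2.77-fold, while the core subunits moved less, with *CDC27* and *ANAPC1* down and the other 3 not past the threshold (edgeR quasi-likelihood test, FDR < 0.01). In H1792 cells the same dose and time gave smaller changes in the partners. *UBE2S*, *UBE2C* and *FZR1* rose by at most 1.37-fold, and *FBXO5*, *CDC23* and *CDC27* fell. Lower transcript in a culture can reflect fewer cells in a cell cycle phase or less RNA per cell, and these cannot be told apart in bulk RNA.

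By count, 6 of the 10 members were lower in A549, where 17.8% of all 13174 genes tested were called lower, and 0 were higher, against 17.2% of all genes. In H1792, 3 members were lower, against 18.8% of 15017 genes, and 3 were higher, against 16.2%. In so short a list these H1792 counts are not set apart from the shares of all genes. Counting only members whose AMG900 and DMSO libraries did not overlap in CPM, A549 had 7 lower and 0 higher, where 18.0% and 26.0% of genes did so, and H1792 had 3 lower and 4 higher, where 29.3% and 30.3% of genes did. Leaving out any A549 library left 6 members lower in A549, and leaving out any H1792 library left 3 lower and 2 to 4 higher in H1792.

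**Figure D1:**
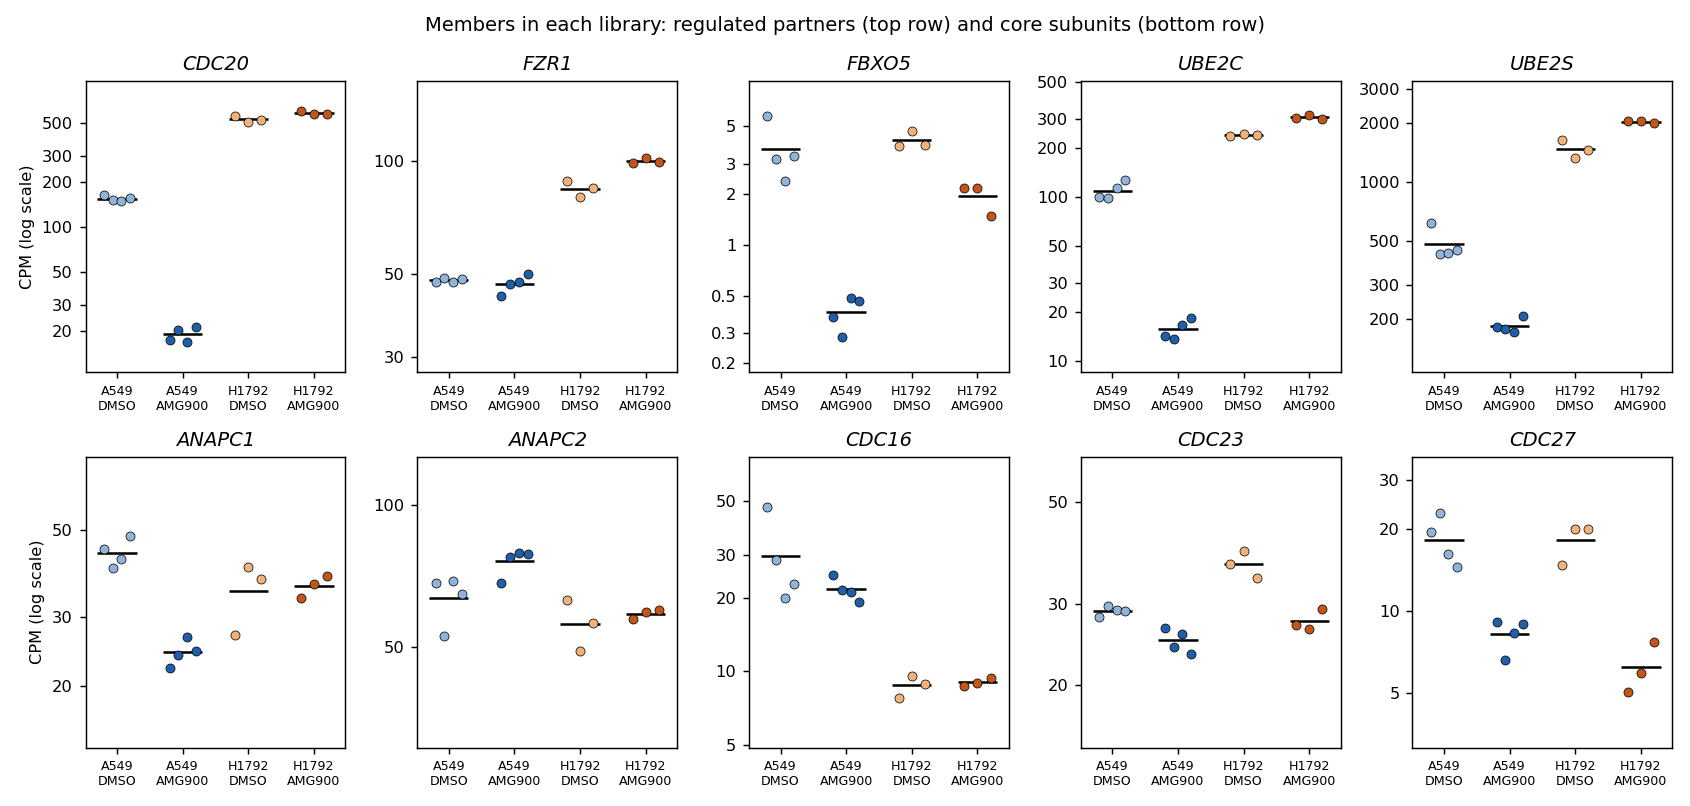
Normalized expression of each member in every library, as CPM on a log axis whose range differs between panels. Points are libraries, black lines are group means. CDC20 in A549 sits between 148 and 164 CPM with DMSO and between 16.9 and 21.2 CPM with AMG900, whereas in H1792 it sits between 504 and 596 CPM in both groups.

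*CDC20*, the mitotic activator, was at 164, 150.4, 148 and 157 CPM in the A549 DMSO libraries and at 17.3, 20.3, 16.9 and 21.2 CPM in the A549 AMG900 libraries. Every treated library was far below every control. The means were 155 ± 7.28 CPM (SD, n = 4) and 18.9 ± 2.14 CPM (SD, n = 4). The fit, scaled within A549 alone, gave an 8.65-fold decrease (log2 fold change -3.11, SE 0.09, edgeR adjusted p = 6.4e-12). Without A549 DMSO replicate 1 the log2 fold change was -3.08 (edgeR adjusted p = 3.0e-20). In H1792 the gene stood at 557, 504 and 525 CPM with DMSO and at 596, 572 and 569 CPM with AMG900. The H1792 groups did not overlap, but their difference was small (log2 fold change 0.13, SE 0.05) and did not pass the threshold (edgeR adjusted p = 0.0632). It turned into a called decrease of 0.14 on the log2 scale after the correction for GC content described below, so no direction is given for *CDC20* in H1792. Without H1792 DMSO replicate 1 the uncorrected rise was 0.14 and was called (edgeR adjusted p = 0.00828).

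*FZR1*, the activator of late mitosis and G1, was at 47.4, 48.8, 47.5 and 48.4 CPM in A549 DMSO and at 43.7, 46.8, 47.4 and 49.8 CPM in A549 AMG900. These ranges overlapped and the means, 48 ± 0.684 and 46.9 ± 2.51 CPM (SD, n = 4), differed by less than the spread of the treated libraries (log2 fold change -0.11, SE 0.08, edgeR adjusted p = 0.267). In H1792 it was at 88.3, 79.9 and 84.7 CPM with DMSO and at 98.8, 102 and 99.2 CPM with AMG900, a 1.18-fold increase (log2 fold change 0.24, SE 0.06, edgeR adjusted p = 0.00459). The call was lost on leaving out DMSO replicate 3 or any of the 3 AMG900 libraries, where the edgeR adjusted p lay between 0.0185 and 0.0326. The log2 fold change itself stayed between 0.23 and 0.25 in these fits. *FZR1* has one of the most GC-rich transcripts among the members, 63.8% G or C, and its call depended on that: with the GC correction it fell in A549 (log2 fold change -0.55, edgeR adjusted p = 7.7e-05) and was at -0.10 in H1792 (edgeR adjusted p = 0.11).

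The proportion of the 2 activators changed in A549. The log2 ratio of *CDC20* to *FZR1* CPM within each library was 1.79, 1.62, 1.64 and 1.70 with DMSO and -1.33, -1.20, -1.49 and -1.23 with AMG900 in A549. It moved by -3.00, with an SD between libraries of 0.11, so that *FZR1* had more reads than *CDC20* in every treated library and fewer in every control. In H1792 the ratio was 2.66, 2.66 and 2.63 with DMSO and 2.59, 2.49 and 2.52 with AMG900, a move of -0.11. The SD between H1792 libraries was 0.04, and the groups did not overlap. After the GC correction these moves were -2.89 and -0.04. Per kilobase of exon, which allows a comparison of levels between genes, *CDC20* was 10.4 times as high as *FZR1* in A549 DMSO and 20.2 times in H1792 DMSO. In A549 AMG900 *CDC20* was still the higher by merged exons, at 9.4 ± 1.06 against 7.24 ± 0.387 CPM per kilobase (SD, n = 4), without overlap. The order by reads thus reversed in A549, while the order per kilobase of merged exons did not.

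*FBXO5*, the inhibitor of the complex in S and G2 phase, was the lowest of the members. In A549 DMSO it had 26, 37, 33 and 58 reads (5.76, 3.18, 2.38 and 3.34 CPM) and in A549 AMG900 4, 4, 9 and 7 reads (0.376, 0.284, 0.488 and 0.464 CPM). The groups did not overlap, and the decrease was 8.83-fold with few reads and a wide error (log2 fold change -3.14, SE 0.39, edgeR adjusted p = 1.2e-05). A minimum of 10 reads in every library removes the gene from the A549 test. Without A549 DMSO replicate 1, which had the highest value, the log2 fold change was -2.91. In H1792 the reads were deeper, 244, 222 and 166 with DMSO (3.82, 4.66 and 3.87 CPM) and 164, 105 and 83 with AMG900 (2.16, 2.15 and 1.47 CPM). There the decrease was 2.13-fold, again without overlap (log2 fold change -1.09, SE 0.18, edgeR adjusted p = 6.7e-04). *FBXO5* has the lowest GC content of the members, 34.2%, and with the GC correction its log2 fold change was -2.63 in A549, still called, and -0.40 in H1792, no longer called (edgeR adjusted p = 0.0754).

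Against *FZR1*, which FBXO5 inhibits together with the APC/C, the log2 ratio of *FBXO5* CPM fell in both lines. It went from -3.76 ± 0.53 to -6.68 ± 0.28 (SD, n = 4) in A549 and from -4.34 ± 0.23 to -5.67 ± 0.30 (SD, n = 3) in H1792. No treated library reached the range of the controls of its line. The differences of -2.91 and -1.33 became -1.92 and -0.33 after the GC correction. Without A549 DMSO replicate 1 the uncorrected difference in A549 was -2.67.

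**Figure D2:**
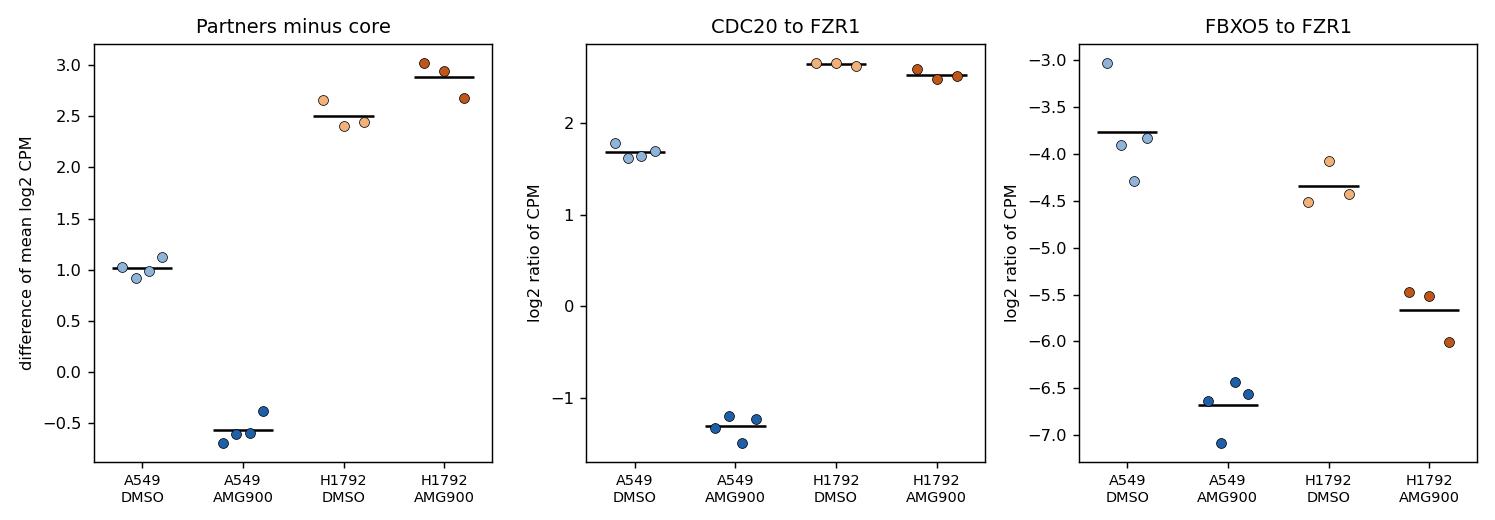
Within-library log2 differences for the 4 groups: mean log2 CPM of the 5 regulated partners minus that of the 5 core subunits, log2 of CDC20 over FZR1, and log2 of FBXO5 over FZR1. Points are libraries, black lines are group means, and the vertical axes differ. In A549 the CDC20 to FZR1 value goes from 1.62 or more to -1.20 or less, while in H1792 it goes from 2.63 or more to 2.59 or less.

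The ubiquitin-conjugating enzymes moved in opposite directions in the 2 lines. *UBE2C*, which starts the ubiquitin chain, was at 99.9, 98.7, 113 and 126 CPM in A549 DMSO and at 14.1, 13.7, 16.6 and 18.4 CPM in A549 AMG900, a 7.35-fold decrease (log2 fold change -2.88, SE 0.11, edgeR adjusted p = 5.8e-11). In H1792 it was at 234, 243 and 237 CPM with DMSO and at 304, 318 and 299.5 CPM with AMG900, a 1.29-fold increase (log2 fold change 0.37, SE 0.05, edgeR adjusted p = 1.8e-04). No treated library overlapped a control in either line.

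*UBE2S*, which lengthens the chain, was the most abundant member per length in every group. It was at 623, 431, 438 and 449 CPM in A549 DMSO and at 182, 178, 172 and 208 CPM in A549 AMG900, a 2.77-fold decrease (log2 fold change -1.47, SE 0.11, edgeR adjusted p = 1.0e-07). The high control was replicate 1, and without it the log2 fold change was -1.32 (edgeR adjusted p = 1.5e-15). In H1792 it was at 1649, 1337 and 1468 CPM with DMSO and at 2057, 2050.1 and 2009 CPM with AMG900, a 1.37-fold increase (log2 fold change 0.45, SE 0.07, edgeR adjusted p = 3.6e-04). Both increases in H1792 remained called with the GC correction, at 0.29 for *UBE2C* and 0.23 for *UBE2S*.

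Among the core subunits, *CDC27*, an arm that binds activators, fell in both lines. It was at 19.5, 22.9, 16.1 and 14.5 CPM in A549 DMSO and at 9.13, 6.6, 8.34 and 8.96 CPM in A549 AMG900, and at 14.7, 20 and 19.9 CPM in H1792 DMSO and at 5.06, 5.92 and 7.68 CPM in H1792 AMG900. The groups were apart in both lines, with a decrease of 2.32-fold in A549 (log2 fold change -1.21, SE 0.17, edgeR adjusted p = 5.4e-05) and 2.94-fold in H1792 (log2 fold change -1.56, SE 0.16, edgeR adjusted p = 4.0e-05). It is the member with the largest decrease in H1792. Its transcript is AT-rich (36.8% G or C), and the GC correction moved the values to -0.71 and -1.03, both still called (edgeR adjusted p = 0.00235 and 1.1e-04).

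*ANAPC1*, the scaffold, fell in A549 from 44.7, 40.1, 42.1 and 48.2 CPM to 22.2, 24, 26.7 and 24.5 CPM, a 1.89-fold decrease without overlap (log2 fold change -0.92, SE 0.10, edgeR adjusted p = 3.8e-06). In H1792 it was at 27, 40.2 and 37.5 CPM with DMSO and at 33.6, 36.5 and 38.1 CPM with AMG900, and the groups overlapped (log2 fold change 0.05, SE 0.13, edgeR adjusted p = 0.789). The sign in H1792 turned without DMSO replicate 1, the low control, to -0.14. *CDC23*, another arm, was at 36.7, 39.1 and 34.2 CPM in H1792 DMSO and at 27, 26.4 and 29.3 CPM in H1792 AMG900, a 1.33-fold decrease (log2 fold change -0.41, SE 0.07, edgeR adjusted p = 0.0011) that was no longer called with the GC correction (-0.22, edgeR adjusted p = 0.0148). In A549 its libraries did not overlap either, 28.1 to 29.7 CPM against 23.4 to 26.6 CPM, but the log2 fold change of -0.29 (SE 0.10) did not pass the threshold (edgeR adjusted p = 0.0244) and was -0.03 with the GC correction.

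*ANAPC2*, the cullin, and *CDC16*, the remaining arm, passed the threshold in neither line. *ANAPC2* ranged from 52.7 to 68.9 CPM with DMSO and from 68.3 to 78.9 CPM with AMG900 in A549 (log2 fold change 0.18, SE 0.09, edgeR adjusted p = 0.126), and from 49.1 to 62.8 CPM and 57.5 to 59.8 CPM in H1792 (0.07, SE 0.08, edgeR adjusted p = 0.527). It is GC-rich (63.4%), and the correction turned both values, to -0.25 in A549 (edgeR adjusted p = 0.016) and to a called -0.27 in H1792 (edgeR adjusted p = 0.00126). *CDC16* was at 47.2, 28.6, 20 and 22.8 CPM in A549 DMSO and between 19.2 and 24.8 CPM in A549 AMG900. Its log2 fold change of -0.48 (SE 0.21, edgeR adjusted p = 0.0764) came to -0.21 without DMSO replicate 1, the library at 47.2 CPM. In H1792 *CDC16* lay between 7.79 and 9.56 CPM in all 6 libraries (log2 fold change 0.04, SE 0.10, edgeR adjusted p = 0.767).

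**Figure D3:**
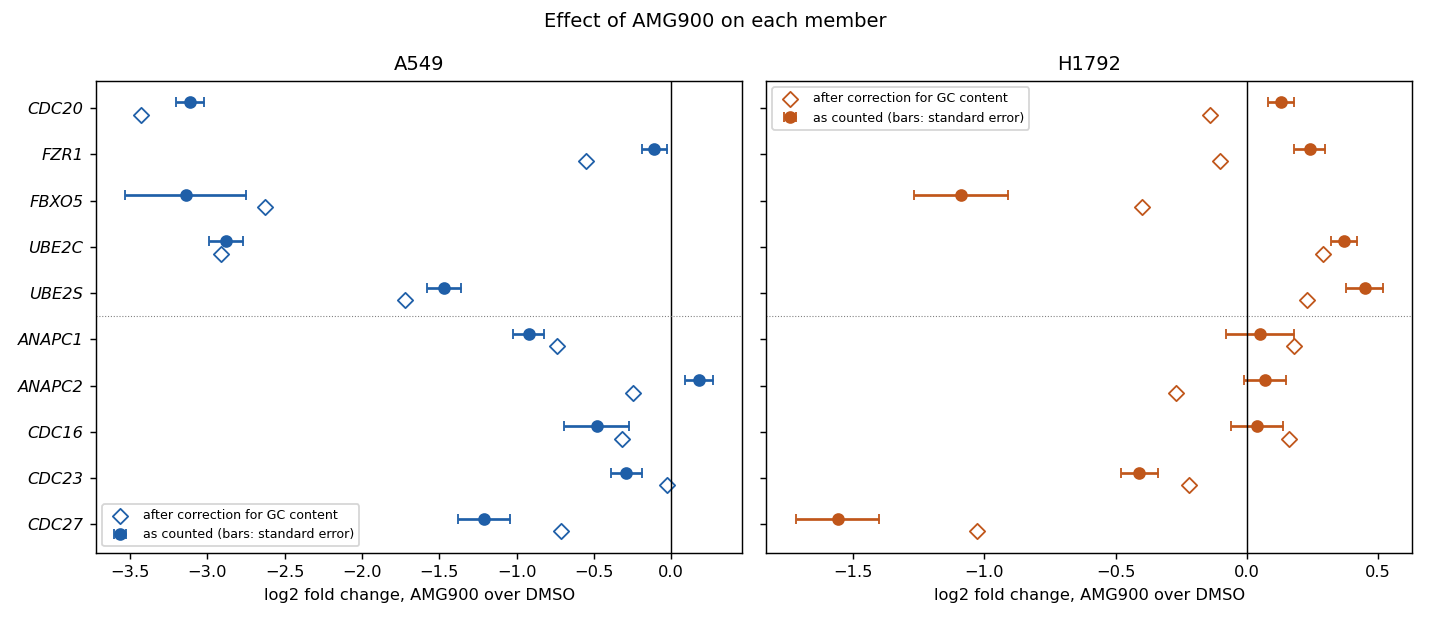
Log2 fold change of AMG900 over DMSO for each member in A549 (left) and H1792 (right), with the regulated partners above the dotted line. Filled circles are the edgeR values with bars of 1 standard error, open diamonds the values after a correction for GC content, and the horizontal axes differ. In A549 the 4 called partners lie between -3.14 and -1.47 with either value below 0, and in H1792 CDC20, FZR1 and ANAPC2 change sign between the 2 values.

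The GC correction is given because, over all genes, transcripts richer in G and C had higher log2 fold changes after AMG900. Spearman's rho was 0.488 over 12788 genes in A549 and 0.47 over 14373 genes in H1792, given as a description, since genes are not independent replicates. The members span 34.2% (*FBXO5*) to 63.8% (*FZR1*) G or C, with *CDC27* at 36.8%, *CDC23* at 43.1%, *ANAPC1* at 44.6%, *CDC16* at 44.8%, *UBE2C* at 50%, *UBE2S* at 55.7%, *CDC20* at 57.9% and *ANAPC2* at 63.4%. Fitting the trend as a spline for each library removed it, to -0.022 and -0.048. Whether the trend comes from the libraries or from the cells was not tested. The 6 decreases called in A549 remained called with the correction, while of the 6 calls in H1792 those of *UBE2C*, *UBE2S* and *CDC27* did.

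Whether the lines responded differently was tested by an interaction term in a joint fit of all 14 libraries. This fit uses TMM factors over all libraries, so its terms need not equal the difference of the values fitted in each line. The median term over all genes was -0.10, against -0.02 with DESeq2 and -0.01 with total counts. AMG900 acted differently on 5 members, all with a less negative effect in H1792, where 5.37% of 14769 genes were called in that direction, and on 0 in the opposite direction, where 9.17% were. Of the regulated partners, *UBE2C* differed by 3.17 on the log2 scale (SE 0.13, edgeR adjusted p = 2.5e-12), *CDC20* by 3.16 (SE 0.11, edgeR adjusted p = 3.3e-13), *FBXO5* by 1.96 (SE 0.42, edgeR adjusted p = 0.002) and *UBE2S* by 1.84 (SE 0.15, edgeR adjusted p = 2.4e-08). *ANAPC1* was the core subunit among them, with 0.89 (SE 0.17, edgeR adjusted p = 6.3e-04). The same 5 were called on leaving out any library and with the GC correction. *FZR1* had 0.28 (SE 0.10, edgeR adjusted p = 0.039), which became a called 0.51 with the GC correction, and 0.35 with DESeq2 (adjusted p = 6.5e-04). For *CDC27*, which fell in both lines, the difference was -0.42 with an SE of 0.25 (edgeR adjusted p = 0.244), so a difference in either direction was not detectable here. *ANAPC2*, *CDC16* and *CDC23* lay between -0.19 and 0.44 and did not pass. Growth medium, count table and sequencing depth differ along with the line, and the interaction test cannot tell them apart.

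With DMSO alone, most regulated partners were higher in H1792 than in A549. *CDC20* was 3.42-fold higher (log2 difference 1.77, SE 0.07, edgeR adjusted p = 3.0e-14), *UBE2S* 3.07-fold (1.62, SE 0.11, edgeR adjusted p = 5.2e-11), *UBE2C* 2.17-fold (1.11, SE 0.09, edgeR adjusted p = 9.1e-10) and *FZR1* 1.75-fold (0.81, SE 0.07, edgeR adjusted p = 1.9e-09). *FBXO5* differed by 0.27 (SE 0.25), which did not pass (edgeR adjusted p = 0.334) and turned to -0.05 with the GC correction. Of the core, *CDC23* was 1.26-fold higher in H1792 (0.34, SE 0.08, edgeR adjusted p = 0.0015) and *CDC16* 3.25-fold lower (-1.70, SE 0.20, edgeR adjusted p = 3.5e-07), while *CDC27* was at 18.2 CPM in both lines. In all, 5 members were higher, against 34.2% of all genes, and 1 was lower, against 31.9%. The call of *CDC23* was lost without H1792 DMSO replicate 2 (edgeR adjusted p = 0.0101) and when libraries were scaled by total counts, which moves the median difference of all genes from 0.04 to -0.07. Line, growth medium, count table and sequencing depth cannot be told apart in this comparison.

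The partners and the core were also set against each other within each library, with *FZR1*, the partner that did not pass the test in A549, included. The mean log2 CPM of the partners minus that of the core was 1.03, 0.92, 0.99 and 1.12 in the A549 DMSO libraries and -0.69, -0.60, -0.59 and -0.38 in the A549 AMG900 libraries. The difference fell by 1.58, with an SD between libraries of 0.11, and the groups lay far apart. In H1792 it was 2.66, 2.40 and 2.44 with DMSO and 3.02, 2.94 and 2.68 with AMG900, higher by 0.38 with an SD of 0.16. The lowest treated library was 0.02 above the highest control, so this change is close to the spread, and with the GC correction it was 0.23. These are differences between sets chosen with results of these data known, and they were not tested. The median log2 fold change of the partners was -2.88 in A549 and 0.24 in H1792, that of the core -0.48 and 0.04, and that of all genes tested -0.01 and 0.01.

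Levels per kilobase of merged exons put the members in an order, and the order and overlaps given here hold for this length only. The longest transcript has 2655 bases against 5458 of merged exons for *ANAPC2*, and 914 against 1286 for *UBE2C*. For *ANAPC1* these are 7762 against 13984 and for *CDC27* 5830 against 6824. Members that stand level by merged exons can therefore lie apart by longest transcript. In A549 DMSO *UBE2S* led at 173 ± 33.2 CPM per kilobase (SD, n = 4), followed by *UBE2C* at 85 ± 9.81 and *CDC20* at 77 ± 3.61, whose ranges overlapped. *ANAPC2* (11.7 ± 1.37), *CDC16* (7.48 ± 3.08) and *FZR1* (7.42 ± 0.105) followed with overlapping neighbours, then *CDC23* (6.27 ± 0.136), *ANAPC1* (3.13 ± 0.251), *CDC27* (2.67 ± 0.545) and *FBXO5* (0.949 ± 0.377), of which *ANAPC1* and *CDC27* overlapped. With AMG900, *ANAPC2* at 13.9 ± 0.942 stood level with *UBE2C* at 12.2 ± 1.72, their ranges overlapping, and both above *CDC20* at 9.4 ± 1.06. The partners that had stood apart from the core thus lay among it, except *UBE2S* at 66.1 ± 5.69 and *FBXO5* at 0.104 ± 0.0238.

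By the same merged exon length, *UBE2S*, *CDC20* and *UBE2C* led in this order in both groups of H1792. With DMSO *UBE2S* was at 531 ± 55.7, *CDC20* at 263 ± 13.1 and *UBE2C* at 185 ± 3.61 CPM per kilobase (SD, n = 3), and with AMG900 at 728 ± 9.07, 288 ± 7.23 and 239 ± 7.21. *FZR1* came next in both groups (13 ± 0.656 and 15.4 ± 0.231), then *ANAPC2* and *CDC23*. *CDC27* was level with *ANAPC1* in DMSO, at 2.67 ± 0.445 against 2.49 ± 0.497, and below it and *CDC16* with AMG900, at 0.909 ± 0.193. *FBXO5* was last in both, at 1.07 ± 0.124 and 0.5 ± 0.102.

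Of 9 further subunits of the complex, 2 fell and 0 rose in A549 (17.8% and 17.2% of all genes) and 1 fell and 2 rose in H1792 (18.8% and 16.2% of all genes), with medians of -0.16 and 0.01. With the GC correction 2 fell and 1 rose in A549, and 2 fell and 4 rose in H1792. *ANAPC15*, a small subunit needed to release the checkpoint complex, was the gene of this list with the largest called change in A549, -0.42 (SE 0.12, edgeR adjusted p = 0.00989), and it rose in H1792 by 0.38 (SE 0.10, edgeR adjusted p = 0.0091), a tested difference between lines of 0.74 (edgeR adjusted p = 0.00265). *ANAPC13*, another small subunit, fell in H1792 (-0.51, SE 0.11, edgeR adjusted p = 0.00363).

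The mitotic checkpoint complex binds CDC20 and blocks the APC/C until chromosomes are attached. Its genes *MAD2L1*, *BUB1B* and *BUB3* all fell in both lines, where 17.8% of all genes were called lower in A549 and 18.8% in H1792. The list also held *TRIP13* and *MAD2L1BP*, whose products take the complex apart: *TRIP13* fell in A549 (-2.52, SE 0.09, edgeR adjusted p = 3.6e-11) and was at -0.02 in H1792 (edgeR adjusted p = 0.804), and *MAD2L1BP* passed in neither line. Over these 5 genes the median was -2.52 in A549 and -0.32 in H1792, and with the GC correction 3 of the 5 fell in A549 and 2 in H1792. *BUB1B*, which encodes BUBR1, had the largest decrease in A549, from 25.2 ± 7.93 to 2 ± 0.194 CPM (SD, n = 4; log2 fold change -3.71, SE 0.23, edgeR adjusted p = 1.1e-08). *MAD2L1*, which encodes the CDC20-binding MAD2, had the largest in H1792, from 34.1 ± 2.43 to 12.3 ± 1.59 CPM (SD, n = 3; log2 fold change -1.48, SE 0.10, edgeR adjusted p = 3.6e-06). Of 5 other regulators, 2 fell in A549 and 1 in H1792, which in so short a list is not set apart from these shares. The 1 in H1792 was the ubiquitin-conjugating enzyme *UBE2D1* (-0.50, SE 0.08, edgeR adjusted p = 6.1e-04), whose value turned to 0.22 with the GC correction.

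Substrates of the APC/C were looked at as transcripts. In A549 all 18 tested fell, where 17.8% of all genes did, with a median of -3.04. With the GC correction 17 fell. The largest decrease was that of *CCNA2*, which encodes cyclin A, at -4.63 (SE 0.29, edgeR adjusted p = 1.2e-08), with 8 to 16 reads in the treated libraries. Among genes with a mean of at least 100 counts it was that of *ANLN*, the cytokinesis protein anillin, at -4.05 (SE 0.24, edgeR adjusted p = 6.3e-09). In H1792, 8 of 19 fell and 1 rose, against 18.8% and 16.2% of all genes, with a median of -0.22. The decreases included *CCNA2* (-1.32, SE 0.08, edgeR adjusted p = 1.9e-06), and the increase was *AURKB*, a kinase that AMG900 inhibits (0.24, SE 0.06, edgeR adjusted p = 0.00838), which was at 0.02 with the GC correction. Between lines, 16 of the 19 differed, all with the less negative effect in H1792, where 5.37% of all genes were called in that direction.

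Genes of S phase fell in both lines, 5 of 5 in each, with medians of -2.0 and -0.64. Of all genes, 17.8% fell in A549 and 18.8% in H1792. *MCM6*, a subunit of the replicative helicase, was at -2.60 in A549, and *RRM1*, a subunit of ribonucleotide reductase, at -0.98 in H1792. Genes of G2/M fell 5 of 5 in A549, with a median of -3.08 and *TOP2A*, a topoisomerase, at -3.55. In H1792, 1 fell, the kinesin *KIF20B* (-1.49), and 1 rose, the kinetochore protein *CENPF* (0.26), and the median was -0.04. These H1792 counts are not set apart from the 18.8% of all genes that fell there and the 16.2% that rose. With the GC correction *KIF20B* was at -0.80 and *CENPF* at 0.56, 2 genes rose and the median was 0.15. *CDKN1A*, the p21 inhibitor of cyclin-dependent kinases, rose in both, by 1.73 in A549 and 0.60 in H1792 (0.32 with the GC correction), all by the same edgeR test. These lists were chosen with results of these data known, and no test of a list as a whole was made.

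**Figure D4:**
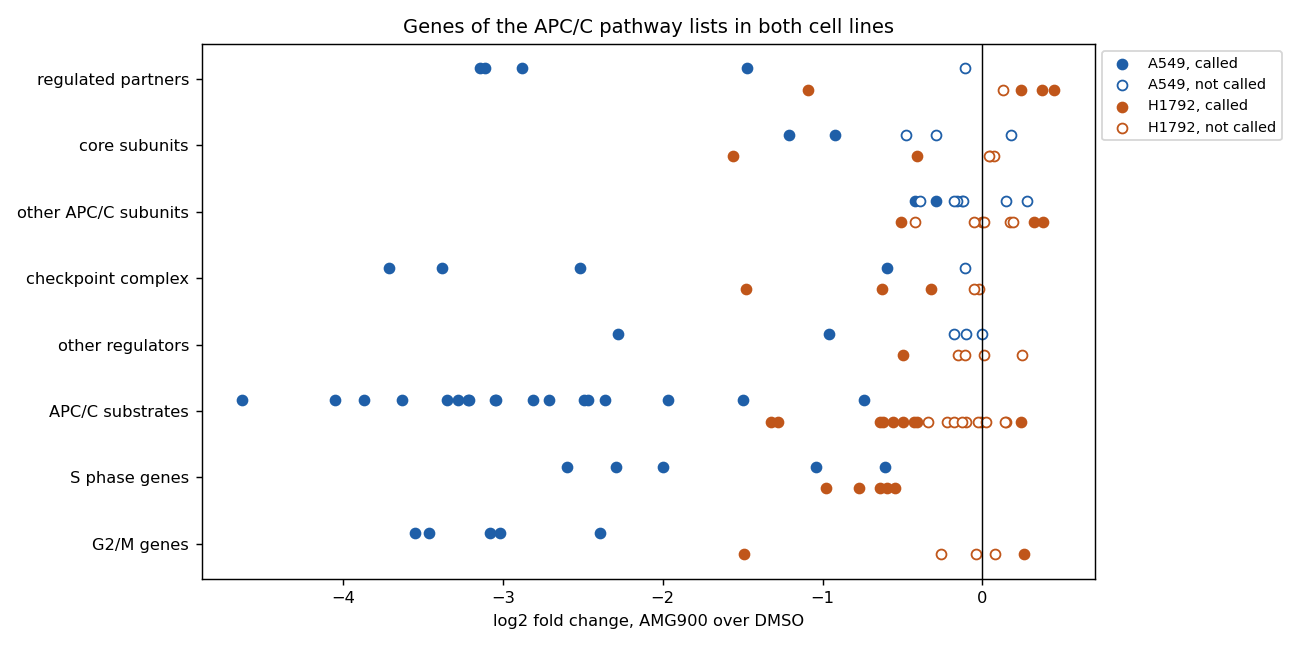
Log2 fold change of AMG900 over DMSO for each tested gene of the 8 lists, A549 in blue and H1792 in orange. Filled points passed FDR < 0.01 in edgeR and open points did not. In A549 all substrate, S phase and G2/M genes lie below 0, whereas in H1792 the partner, substrate and G2/M lists lie on both sides of it.

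Genes with a profile like that of *CDC20* were sought among 10498 genes with a mean of at least 100 counts, as the smallest root mean square difference over the 14 libraries of log2 CPM centred on the DMSO mean of each line. The nearest were *ESPL1*, which encodes separase (0.11), *PRC1*, a spindle midzone protein (0.12), and *BIRC5*, which encodes survivin (0.13). Their log2 fold changes in A549 lay between -3.12 and -3.07 and in H1792 between -0.11 and 0.16. Nearest to *FBXO5* were *CEP55*, a protein of the cytokinetic midbody (0.28), *LMNB1*, which encodes lamin B1 (0.28), and *WDHD1*, a replication factor (0.29), with log2 fold changes between -3.41 and -2.93 in A549 and between -1.20 and -0.94 in H1792.

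Some of the counts carry a limit from the genome. The members lie on chromosomes 1 (*CDC20*, 43824652 to 43828874 on GRCh37), 19 (*FZR1*, 3506309 to 3538332, and *UBE2S*, 55911113 to 55919156), 6 (*FBXO5*, 153291654 to 153304714), 20 (*UBE2C*, 44441215 to 44445596), 2 (*ANAPC1*, 112369216 to 112642267), 9 (*ANAPC2*, 140069236 to 140083012), 13 (*CDC16*, 115000362 to 115038198), 5 (*CDC23*, 137523339 to 137549032) and 17 (*CDC27*, 45195069 to 45266788). The annotation names 6 pseudogenes of *ANAPC1*, 5 of *UBE2C*, 2 each of *CDC27* and *UBE2S* and 1 of *CDC20*, so reads shared with such copies make these counts uncertain. Exons of *UBE2S* overlap those of CTD-2105E13.13 on the same strand by 675 bases, and those of *ANAPC1* overlap genes on either strand by up to 327 bases. Overlaps with genes on the opposite strand reach 157 bases for *FBXO5*, 145 for *CDC16*, 126 for *CDC27* and 74 for *FZR1* (*MFSD12*) and *CDC23* (*KIF20A*), and the sources used here do not state whether strand was used in counting.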

How the data were processed

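RNA was sequenced from A549 and H1792 cells (14 libraries in all) on an Illumina NextSeq instrument. The deposited values are raw read counts per gene symbol, without normalization, in 1 table per cell line. The submitters' processing notes name STAR, HTSeq and hg19 (GRCh37), without versions. Of 26760 entries per table, 28 of the H1792 table bear dates in place of symbols (0.101% to 0.117% of counts) and were left out.

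Counts were analysed with edgeR 4.0.16 in R 4.3.3: filterByExpr, TMM factors, the quasi-likelihood test and Benjamini-Hochberg adjustment over all genes tested, at FDR < 0.01. AMG900 was compared with DMSO in each line, and the interaction and the DMSO groups in a joint fit of all libraries. SE is the log2 fold change divided by the root of the F statistic. Printed CPM use TMM factors over all libraries, and log2 CPM a prior count of 2. The tests within a line use TMM factors of that line alone, so fold changes need not equal ratios of printed means. Exon lengths and GC content came from GENCODE on GRCh37, by current (22365) or older (1250) symbol. The members and lists were chosen with earlier results of these data known. Named genes are all members, in each list and line the called gene with the largest rise and fall among those with a mean of at least 100 counts, and the 3 nearest profiles of *CDC20* and *FBXO5*. *BUB3*, *TRIP13*, *MAD2L1BP*, *CCNA2* in A549, the marker genes and the overlapping genes fall outside this rule and were named after their values were seen. The steps were tested on simulated data. Alternatives were DESeq2 1.42.0, its size factors, total counts, other filters, an FDR of 0.05, a GC spline (5 degrees of freedom) without and with length, a replicate block and each library left out. The GC spline and the left-out libraries were added for the within-library ratios after the data were seen. Replicate numbers did not pair the libraries. *FBXO5* in A549 rests on few reads. How much of an SE comes from counting and how much from the spread between libraries was not tested.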

Additional observations from a re-analysis of the deposited data

Results flagged for a closer look

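For 5 members the effect of AMG900 differed between the cell lines in the joint fit (edgeR interaction test, adjusted p values given above). The interaction term of the joint fit, positive for a less negative effect in H1792, was 3.17 for *UBE2C*, 3.16 for *CDC20*, 1.96 for *FBXO5*, 1.84 for *UBE2S* and 0.89 for *ANAPC1*. Line, growth medium, count table and sequencing depth cannot be told apart here. *UBE2C* and *UBE2S* were the members called lower in A549 and higher in H1792.

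In 20 groups of 4 A549 libraries, a single library stood apart from the other 3 in 2 of them, where about 1 in 20 is flagged by chance. *UBE2S* in A549 DMSO was highest in replicate 1, whose gap to the next library was 0.908 of the range of the group. *ANAPC2* in A549 AMG900 was lowest in replicate 1, with a gap of 0.882 of the range. Without A549 DMSO replicate 1 the log2 fold change of *UBE2S* was -1.32 in place of -1.47.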

How the results depend on the processing

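Of the 40 log2 fold changes of members (10 in each of 4 comparisons), direction and side of the threshold were kept by 40 with no filter on low counts, 39 with the DESeq2 size factors, 39 with a replicate block, 37 with DESeq2, 37 at an FDR of 0.05, 31 with total counts and 28 with either GC correction. With at least 10 counts in every library *FBXO5* was not tested in A549 or the joint fit, and the other 37 kept theirs. Of 420 values with a library left out, 406 did. The cause of a change was not tested.

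Sign reversals were as follows. The GC correction, without and with length, gave *ANAPC2* -0.25 and -0.21 in A549 and -0.27 and -0.22 in H1792, *CDC20* -0.14 and -0.21 and *FZR1* -0.10 and -0.05 in H1792, the *ANAPC2* difference between lines 0.03 and 0.03, and, between the DMSO groups, *FBXO5* -0.05 and -0.19 and *CDC27* -0.08 and -0.07. *CDC27* between the DMSO groups was also -0.01 with DESeq2, -0.01 with its size factors and -0.09 with total counts, which gave *ANAPC1* -0.02 and *CDC16* -0.03 in H1792. With a library left out, H1792 values ranged from -0.14 to 0.15 for *ANAPC1*, -0.03 to 0.13 for *ANAPC2* and -0.06 to 0.10 for *CDC16*, and *CDC27* between the DMSO groups from -0.09 to 0.21.

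Members called lower in H1792 than in A549 with DMSO numbered 2 at an FDR of 0.05, with DESeq2 and with either GC correction, 3 with total counts, and 1 to 2 with a library left out (2 without H1792 DMSO replicate 2), against 1. The partners against the core moved by -1.82 with the GC correction and -2.12 with medians in A549, and by 0.23 with the GC correction and 0.63 with medians in H1792, against -1.58 and 0.38. *CDC20* over *FZR1* per kilobase was 9.4 in A549 and 18.3 in H1792 by longest transcript. With the replicate block *FZR1* in H1792 kept 0.24 but was not called (edgeR adjusted p = 0.0133), and members called higher there numbered 2. Same-numbered libraries correlated between -0.06 and 0.043, so the numbers mark no pairing.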
